A study of Mus musculus with 2 samples.

Results

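Accessibility was examined at 8 genes of 21938 annotated protein-coding genes, the GATA transcription factors Gata1, Gata2, Gata3, Gata4, Gata5 and Gata6 and their FOG cofactors Zfpm1 (FOG1) and Zfpm2 (FOG2). The genes were chosen by name. DNase-seq maps open chromatin by sequencing the ends that DNase I leaves where it cuts, and was deposited here for spleen of male B6CASTF1/J mice aged 10 days. B6CASTF1/J mice are F1 hybrids of C57BL/6 and CAST/EiJ. The 2 libraries, biological replicates 1 and 2 of 1 group, were made from separately numbered males that share a donor identifier, and no contrast between conditions was possible. Whole spleen is a mixture of cell types, so fewer cells with an open site and a less accessible site in each cell cannot be told apart. With 1 group, values are described per library and no test was made.

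GATA factors are zinc-finger proteins that bind the sequence WGATAR, where W is A or T and R is A or G. GATA1 drives the differentiation of red cells, megakaryocytes and mast cells, GATA2 maintains blood stem and progenitor cells and mast cells, and GATA3 directs T cell development. GATA4, GATA5 and GATA6 are known from heart, gut and other mesoderm and endoderm. FOG proteins do not rely on binding DNA themselves: they attach to the amino-terminal zinc finger of a GATA factor and bring in corepressors such as the NuRD complex and CtBP. FOG1 acts with GATA1 in red cells and megakaryocytes, and FOG2 acts with GATA4 in heart and gonad. The spleen of a newborn mouse still makes red cells, beside the B and T cells that settle there.

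A peak is a stretch that the authors called accessible in a library, and its signal is their depth-scaled density of cuts. No source used here gives the scaling constant, so levels are compared within a library. Replicate 1 had 130476 peaks over 24.5 Mb with a median signal of 0.578, and replicate 2 had 95847 peaks over 19.2 Mb with a median of 0.553. Overlapping peaks were merged into sites, and 73150 of 146575 sites (49.9%) held a peak of each library. At those, replicate 1 was higher by a median of 0.84 on the log2 scale (SD over sites 0.58). Of all sites, 36.5% held a peak of replicate 1 alone and 13.6% held one of replicate 2 alone. A promoter is the 500 bp either side of any annotated transcription start site (TSS), and the window of a gene is its span with 50 kb on each side. Positions are on mm10 (GRCm38) with GENCODE M21 gene models.

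Zfpm1 had one of the most accessible promoters in the spleen, Gata1 one below most genes with a promoter peak, Gata2, Gata3, Gata6 and Zfpm2 weaker ones, and Gata4 and Gata5 none. A promoter peak was found at 6 of the 8 genes in replicate 1, where 67.7% of protein-coding genes had one, and at 6 in replicate 2, where 61.3% did. All 4 members known from blood (Gata1, Gata2, Gata3 and Zfpm1) had a promoter peak in both libraries, and so did 1 of the 3 members Gata4, Gata5 and Gata6. The share over all protein-coding genes was 60.7%, so a promoter peak alone did not set these genes apart. Among genes with a promoter peak in both libraries the median of the strongest promoter signal was 8.54 in replicate 1 and 3.55 in replicate 2. Zfpm1 lay far above this median and the other members with a peak lay below it in both libraries. The calls at Gata2, Gata3 and Zfpm2 were lost in the shorter peak list that the authors also deposited. This left 2 of 4 blood members, while the call at Gata6 stayed. The call at Zfpm2 was also lost with a promoter window of 100 bp either side of a TSS.

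The promoters of these genes differ in CpG content, given as the observed to expected ratio of CpG within 500 bp of a TSS. Protein-coding genes with a ratio of at least 0.6 at their most upstream TSS numbered 10083, and 90.8% of them had a promoter peak in both libraries. Their median promoter signal was 11.4 in replicate 1, against 4.63 in replicate 2. Of the other 11855 genes 35.2% had a peak. On that measure the ratio was 0.97 at Zfpm1, 0.77 at Gata2, 0.69 at Gata5 and Zfpm2, 0.53 at Gata6, 0.48 at Gata3, 0.31 at Gata1 and 0.17 at Gata4. Of the 4 members at or above 0.6, Gata5 had no promoter peak and Gata2 and Zfpm2 had signals far below the median of that class, while Zfpm1 was above it. Of the 4 below 0.6, Gata4 had none. The ratio differs between the TSSs of a gene, and at the TSS of the transcript numbered 201 the ratio was 0.23 at Gata1, 0.63 at Gata6, 0.64 at Gata3 and 0.66 at Gata4.

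**Figure D1:**
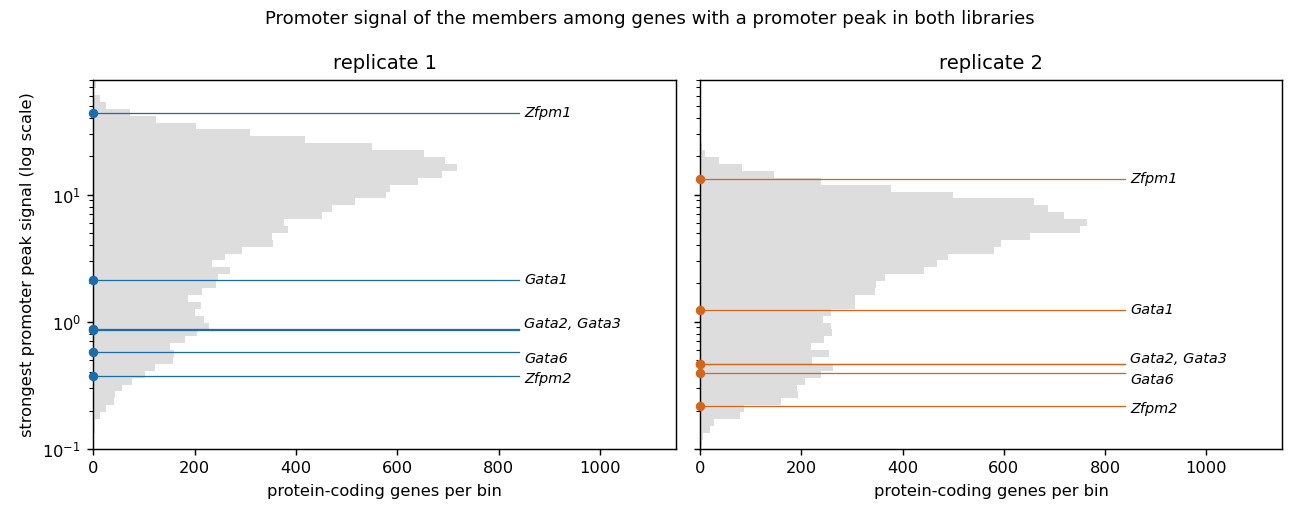
Strongest promoter peak signal of each member (points and lines, log axis) beside the distribution over the 13323 protein-coding genes with a promoter peak in both libraries (grey, genes per bin), by library. Zfpm1 lies at the top of the distribution, Gata1 at 2.11 and 1.24, and the other 4 members with a peak below 0.9 in replicate 1; Gata4 and Gata5 have no promoter peak and are not drawn.

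Gata1, the master regulator of red cells, lies on the minus strand of the X chromosome (chrX:7959260-7978071), which males carry in 1 copy. Its blood promoter, at the TSS of the transcript Gata1-201, held a peak of 2.11 in replicate 1 and 1.24 in replicate 2. These values were at the 21.5th and 25.5th percentile of all genes with a promoter peak in both libraries. Among the 408 such genes on the X chromosome the median promoter signal was 3.42 and 1.53, and Gata1 was at the 35.5th and 44.4th percentile. Of the 3 TSS clusters, that of the short transcript Gata1-203 had a weak peak of 0.379 and 0.31. The most upstream one, of Gata1-202, had none: its nearest peak lay 6471 bp away in replicate 1 and 6451 bp away in replicate 2.

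The strongest site of the Gata1 window outside promoters lay 3.6 kb upstream of the blood promoter, in the third intron of the long transcript Gata1-202. At chrX:7971401-7971620 the signal was 5.76 in replicate 1 and 2.73 in replicate 2, higher than the promoter in each library. It was at the 94.4th and 93.3rd percentile of the 48823 sites in both libraries outside promoters. An enhancer upstream of this promoter that needs a GATA site is known from transgenic mice. The site held 5 footprints in replicate 1 and 3 in replicate 2, a footprint being a short run of bases that the authors called protected from cutting. It had a single GATA hexamer, TTATCT at positions 114 to 119, the reverse complement of AGATAA. A hexamer counts as covered when it lies whole within a footprint extended by 5 bp on each side. This hexamer lay within a footprint of each library also without the extension, at positions 94 to 138 in replicate 1 and 90 to 127 in replicate 2. An E-box, CAGCTG at positions 129 to 134, followed after 9 bases, and the footprint of replicate 1 extended over it. E-boxes (CANNTG) are bound by TAL1 with its E protein partners, which form a complex with GATA1. The blood promoter itself held no GATA hexamer in the stretch before the TSS. A weaker site 0.5 kb upstream, with a signal of 0.769 and 0.754, held a pair of hexamers facing each other, TGATAAgacTTATCT. Of its 1 footprint in replicate 1 and 2 in replicate 2, none covered a hexamer. These sequences are shown because they set the footprinted hexamer beside the promoter and beside the pair without a called footprint. They are read from the GRCm38 reference on the minus strand, 5′ to 3′, with GATA hexamers in capitals. A GATA hexamer here is AGATAA, its variant ending in G (AGATAG), or the same pair starting with T (TGATAA, also TGATAG), on either strand. The ranges are chrX:7971401-7971620, chrX:7967911-7968080 (up to the TSS) and chrX:7968271-7968570.
Gata1, 3.6 kb upstream: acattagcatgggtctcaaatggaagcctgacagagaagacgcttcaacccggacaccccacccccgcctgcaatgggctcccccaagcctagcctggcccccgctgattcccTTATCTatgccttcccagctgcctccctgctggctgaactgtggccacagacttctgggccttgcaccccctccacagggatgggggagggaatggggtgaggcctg
Gata1, promoter: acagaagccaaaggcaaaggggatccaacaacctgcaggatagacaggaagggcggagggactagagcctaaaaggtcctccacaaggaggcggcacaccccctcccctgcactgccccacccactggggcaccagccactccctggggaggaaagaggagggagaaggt
Gata1, 0.5 kb upstream: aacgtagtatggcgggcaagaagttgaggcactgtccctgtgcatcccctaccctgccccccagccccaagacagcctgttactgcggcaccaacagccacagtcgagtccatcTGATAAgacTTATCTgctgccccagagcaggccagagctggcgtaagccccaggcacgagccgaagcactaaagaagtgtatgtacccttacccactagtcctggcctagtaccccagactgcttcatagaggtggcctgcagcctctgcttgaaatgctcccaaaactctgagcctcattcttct

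Around Gata1, 15 of 23 sites were found in both libraries, a density of 12.6 sites per 100 kb of window at the 84.9th percentile of protein-coding genes. The median gene had 5.52 per 100 kb, with quartiles of 1.92 and 9.85. Inside the gene lay 6 of those sites. Upstream, a site 25.3 kb from the blood promoter had 1.39 in replicate 1 and 0.716 in replicate 2, and its neighbour on the gene's side had 1.22 and 0.687. A site 49.4 kb upstream had 1.41 and 0.879. These 3 sites lay between the 57th and 67th percentile of sites outside promoters and held no footprinted GATA hexamer. The promoter of the neighbouring gene Hdac6, a deacetylase of the cytoplasm, had 6.43 and 2.37, above the site 3.6 kb upstream of Gata1 in replicate 1 and below it in replicate 2.

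Gata2 (chr6:88193891-88207032, plus strand) is known to have a distal promoter used in blood progenitors and a proximal one used more widely, at its first and second TSS clusters. Both were weak. The distal promoter had 0.656 in replicate 1 and 0.377 in replicate 2, and the proximal one had 0.855 and 0.465, at the 9.72nd and 11th percentile of genes with a promoter peak. The lowest FDR that the authors list at the distal TSS, where FDR is the false discovery rate of the local cut rate, was 4.97e-06 in replicate 1 and 0.0194 in replicate 2. No base was listed below 0.05 at the TSS of either retained-intron transcript further downstream. Of 23 sites in the window, 8 were found in both libraries (7.07 per 100 kb, the 60.4th percentile). Another 14 (60.9%) were found in replicate 1 alone, against 36.5% of all sites in the genome, and 1 in replicate 2 alone. The 7 sites inside the gene with a peak of replicate 1 alone ranged from 0.349 to 0.54.

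The strongest site at Gata2 lay upstream of both promoters. At chr6:88189541-88189900, 4.2 kb upstream of the distal TSS, the signal was 2.40 in replicate 1 and 1.15 in replicate 2, at the 79.9th and 75.8th percentile of sites outside promoters. It held 6 and 7 footprints and a pair of GATA hexamers, and no footprint covered either hexamer in either library. Inside the gene, 9.3 kb from the distal TSS, intron 4 is known to hold an enhancer with an E-box and a GATA motif that Gata2 needs in blood stem cells and endothelium. The data showed a weak peak there, at chr6:88203141-88203268, of 0.54 in replicate 1 and none in replicate 2. The FDR list of replicate 2 had 27 bases below 0.05 at this place, the lowest at 0.0371, against 0.00839 in replicate 1. In the sequence, CATCTG at positions 45 to 50 and AGATAA at positions 59 to 64 were 8 bases apart, and the only footprint, at positions 44 to 63, ran over the E-box and up to the base before the end of the hexamer. The upstream site is shown for its hexamers without a footprint and the intron site for this pair, both from the GRCm38 plus strand, at chr6:88189571-88189870 and chr6:88203141-88203268.
Gata2, 4.2 kb upstream: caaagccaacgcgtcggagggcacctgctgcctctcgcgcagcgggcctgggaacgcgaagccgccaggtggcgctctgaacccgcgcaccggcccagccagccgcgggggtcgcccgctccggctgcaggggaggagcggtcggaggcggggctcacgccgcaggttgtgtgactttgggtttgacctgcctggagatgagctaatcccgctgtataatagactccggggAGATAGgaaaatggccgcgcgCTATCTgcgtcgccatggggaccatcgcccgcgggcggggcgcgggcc
Gata2, intron 4: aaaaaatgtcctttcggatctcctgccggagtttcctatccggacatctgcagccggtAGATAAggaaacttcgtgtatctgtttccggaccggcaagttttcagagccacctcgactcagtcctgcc

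A second E-box and GATA pair under a footprint lay downstream of the gene, 55.9 kb from the proximal TSS, at chr6:88254141-88254280. It was TTATCA at positions 52 to 57 of the site followed by CAGCTG at 65 to 70, with a peak of 0.473 in replicate 1 alone. The other named sites of the window lay 44.4 kb downstream, with 1.19 and 0.494, and 51.1 kb downstream, with 0.679 and 0.402. Neither held a GATA hexamer.

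Gata3, the GATA factor of T cells, lies on the minus strand of chromosome 2 (chr2:9857078-9890034). Its window held a single strong site beside the promoter, and apart from these 2 no site was found in both libraries. The promoter of Gata3-201 had a peak of 0.874 in replicate 1 and 0.465 in replicate 2, at the 10.1st and 11th percentile of genes with a promoter peak. The site 1.1 kb upstream of it, at chr2:9879601-9879800, had 6.15 and 1.91, at the 95th and 87.6th percentile of sites outside promoters. This site held no GATA hexamer. Of its footprints, 4 in replicate 1 and 3 in replicate 2, those at positions 17 to 42, 78 to 100 and 137 to 159 of replicate 1 overlapped the 3 of replicate 2. At the most upstream TSS, of Gata3-202 and Gata3-203, neither library had a peak or a base listed below an FDR of 0.05. Only 2 of 18 sites in the window were found in both libraries, 1.5 per 100 kb at the 21.4th percentile. A peak of replicate 1 alone was found at 15 (83.3%), against 36.5% of all sites in the genome. Of those 15, 14 lay inside the gene with signals from 0.255 to 0.593. The sequence of the upstream site is shown as the main accessible element of the gene, from the GRCm38 minus strand at chr2:9879601-9879800.
Gata3, 1.1 kb upstream: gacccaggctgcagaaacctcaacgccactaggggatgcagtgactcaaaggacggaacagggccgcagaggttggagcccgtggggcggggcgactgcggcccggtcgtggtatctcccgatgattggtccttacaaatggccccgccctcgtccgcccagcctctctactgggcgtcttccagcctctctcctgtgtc

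Zfpm1, which encodes the cofactor of GATA1 in red cells and megakaryocytes, was the most accessible of the 8 genes (chr8:122282141-122337251, plus strand). Its promoter had a peak of 43.4 in replicate 1 and 13.3 in replicate 2, at the 99.3rd and 97.7th percentile of genes with a promoter peak. A second site 0.7 kb upstream, at chr8:122281381-122281600, reached 39.0 and 15.3. By the mean of both libraries it ranked 12 of the 48823 sites outside promoters, although it lies just beyond the edge of the promoter. Another, 8.8 kb upstream, had 10.6 and 6.39 and ranked 536. Neither of the 2 strongest sites held a GATA hexamer. The upstream one had 7 footprints in each library, and that at positions 117 to 139 had the same ends in both. The promoter had 6 footprints in replicate 1 and 8 in replicate 2, and that at positions 21 to 41 had the same ends in both. Both sequences are shown as the strongest elements at any of the 8 genes, from the GRCm38 plus strand at chr8:122281841-122282120 and chr8:122281381-122281600.
Zfpm1, promoter: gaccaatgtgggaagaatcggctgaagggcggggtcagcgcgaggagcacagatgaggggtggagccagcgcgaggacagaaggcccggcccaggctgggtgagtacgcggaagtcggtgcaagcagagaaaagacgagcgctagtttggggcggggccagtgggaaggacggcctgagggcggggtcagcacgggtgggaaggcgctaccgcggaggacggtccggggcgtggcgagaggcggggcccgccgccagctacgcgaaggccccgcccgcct
Zfpm1, 0.7 kb upstream: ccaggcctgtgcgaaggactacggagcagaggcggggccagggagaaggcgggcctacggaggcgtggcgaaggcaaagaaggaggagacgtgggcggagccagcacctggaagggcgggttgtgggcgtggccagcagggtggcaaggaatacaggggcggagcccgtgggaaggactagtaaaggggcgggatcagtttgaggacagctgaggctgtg

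GATA hexamers covered by footprints in both libraries lay in the introns of Zfpm1. Of 66 sites in the window, 25 were found in both libraries (16.1 per 100 kb, the 92.2nd percentile), and 14 of these lay inside the gene, where the median gene had 1. Intron 1 held 9 of them, with signals from 1.45 to 5.21 in replicate 1 and from 0.837 to 2.99 in replicate 2. At 4 sites, in introns 1 and 3, a footprint extended by 5 bp covered a GATA hexamer in each library, and at 3 of them this held without the extension. The site 5.0 kb from the TSS had 5.21 and 2.99, and the footprint covered CTATCT at positions 112 to 117 in both libraries. The site at 12.2 kb had 2.84 and 2.13 with TTATCT at positions 111 to 116, whole within a footprint in replicate 1 and reached with the extension alone in replicate 2. The site at 27.4 kb had 4.71 and 2.70 and held 5 hexamers, of which CTATCA at 101 to 106 and TTATCA at 126 to 131 were covered whole in both libraries. TTATCT at 168 to 173 was reached with the extension alone in both. The site at 39.7 kb had 6.66 and 3.59, and TTATCA at positions 89 to 94 was covered in both libraries, while TTATCT at 169 to 174 was covered in replicate 1 alone. These 4 sites lay between the 83.6th and 95.8th percentile of sites outside promoters in replicate 1 and between the 89.5th and 96.2nd in replicate 2. A further 3 footprints with a hexamer lay outside the gene, each in 1 library. The 4 intron sites are shown because they are the only sites at Zfpm1 with a covered hexamer in both libraries, from the GRCm38 plus strand at chr8:122287001-122287220, chr8:122294281-122294500, chr8:122309401-122309660 and chr8:122321721-122321960.
Zfpm1, intron 1 at 5.0 kb: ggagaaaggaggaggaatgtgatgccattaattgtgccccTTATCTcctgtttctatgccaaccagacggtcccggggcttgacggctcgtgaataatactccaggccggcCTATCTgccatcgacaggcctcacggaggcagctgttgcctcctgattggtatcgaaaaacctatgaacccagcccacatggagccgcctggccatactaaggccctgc
Zfpm1, intron 1 at 12.2 kb: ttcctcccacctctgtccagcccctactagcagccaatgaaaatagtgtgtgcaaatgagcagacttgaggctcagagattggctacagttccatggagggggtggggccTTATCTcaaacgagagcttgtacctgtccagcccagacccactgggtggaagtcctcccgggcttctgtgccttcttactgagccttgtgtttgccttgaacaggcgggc
Zfpm1, intron 3 at 27.4 kb: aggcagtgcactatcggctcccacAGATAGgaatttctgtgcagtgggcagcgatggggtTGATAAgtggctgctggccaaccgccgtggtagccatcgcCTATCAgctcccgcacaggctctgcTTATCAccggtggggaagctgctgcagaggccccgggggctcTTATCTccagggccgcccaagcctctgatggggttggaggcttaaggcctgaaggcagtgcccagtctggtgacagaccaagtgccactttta
Zfpm1, intron 3 at 39.7 kb: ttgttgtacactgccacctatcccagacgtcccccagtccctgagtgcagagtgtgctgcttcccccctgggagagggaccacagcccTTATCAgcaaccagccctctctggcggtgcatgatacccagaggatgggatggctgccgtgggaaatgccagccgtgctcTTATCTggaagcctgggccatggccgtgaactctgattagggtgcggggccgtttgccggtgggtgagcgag

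Further strong sites at Zfpm1 lay in intron 5, near the TSS of processed transcripts that start there, with 5.68 and 4.27, and 22.6 kb upstream of the gene, with 4.73 and 2.63. Replicate 1 called many peaks here that replicate 2 did not, most of them below the median signal of replicate 1, 0.578. Sites with a peak of replicate 1 alone numbered 37 of 66 (56.1%). Among the 37, 18 followed each other over 13.9 kb from intron 6 past the 3′ end of the gene (chr8:122334187-122348120), with signals from 0.266 to 1.09. Not all of these 18 were marginal in replicate 1. The lowest FDR was 3.04e-22 at chr8:122343861-122344040 (signal 1.09) and 2.23e-21 at chr8:122345161-122345620 (signal 0.93). At both, replicate 2 listed no base below 0.05. A run of 13 lay upstream (chr8:122260219-122268200), with signals from 0.285 to 0.555. Over the 8 windows, 84 of 164 sites had a peak of replicate 1 alone, against 36.5% of all sites in the genome. The 84 had a median signal of 0.369, and the FDR list of replicate 2 held bases below 0.05 at 2 of them. A peak of replicate 2 alone was found at 13 of the 164, against 13.6% of all sites. These 13 had a median of 0.331, and 5 of them held such bases in replicate 1.

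**Figure D2:**
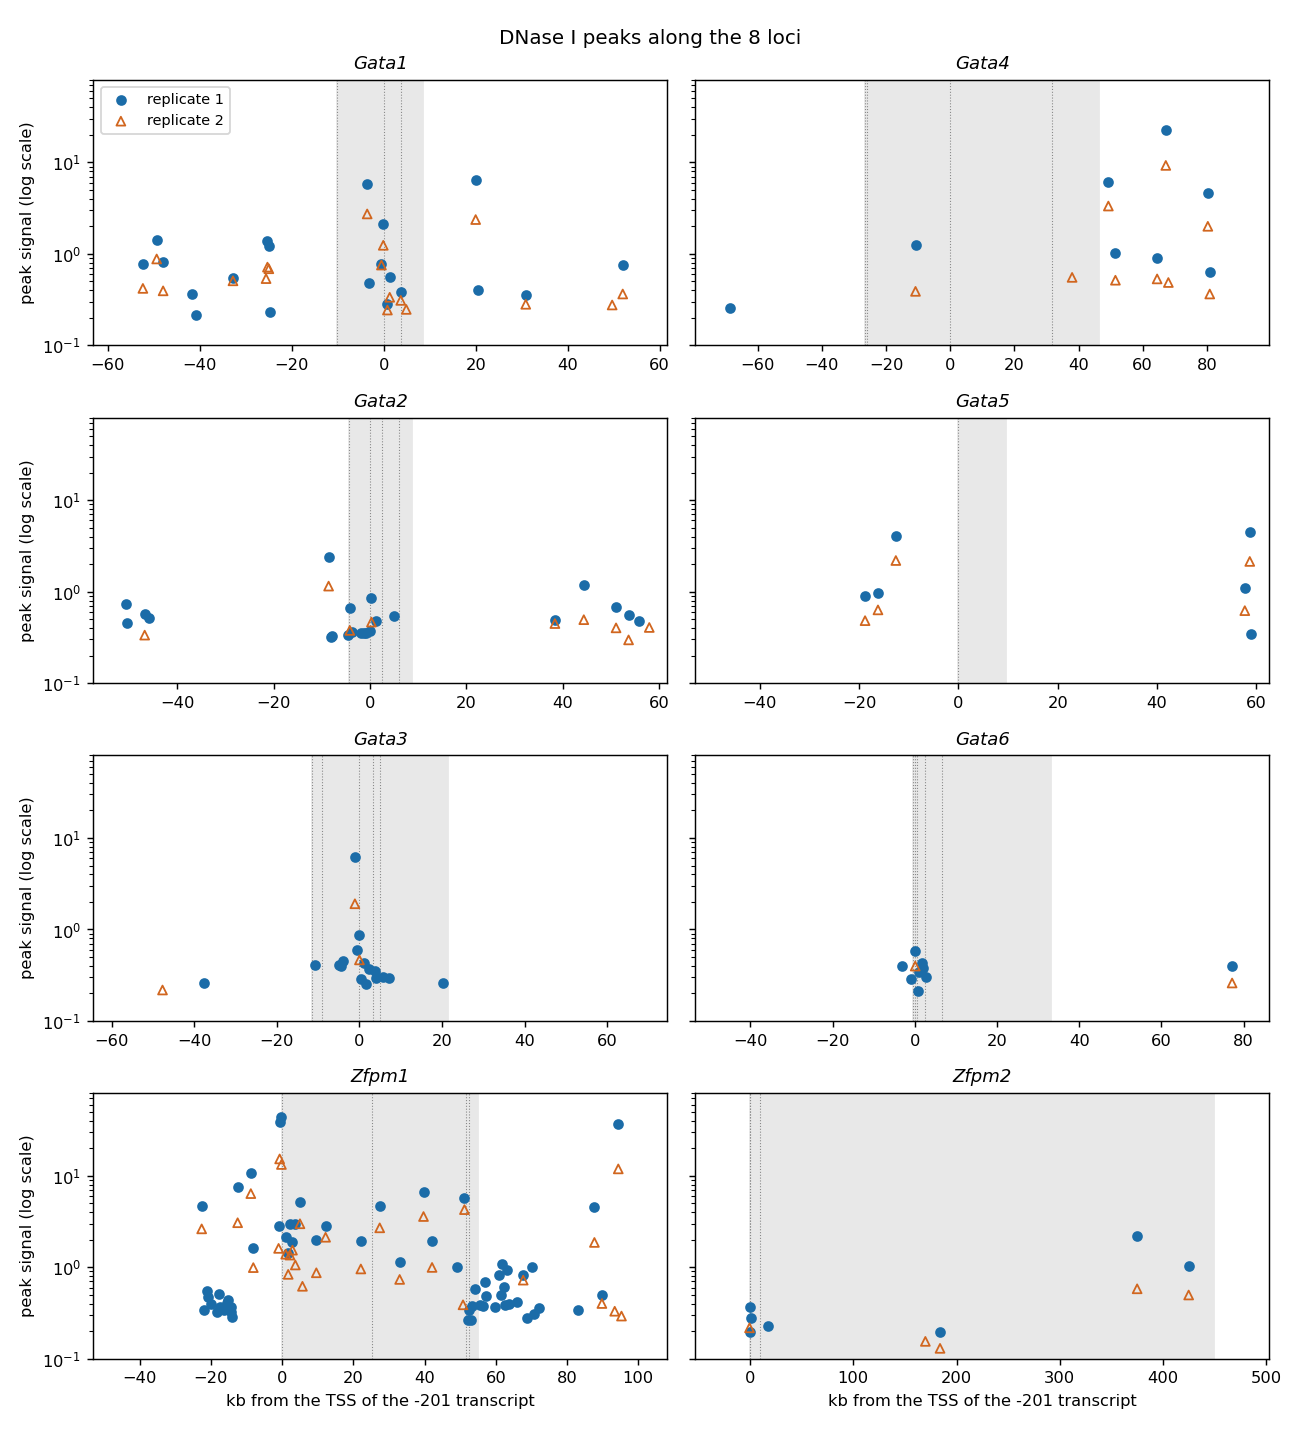
Signal of every peak in the 8 windows (log axis) against distance in kb from the TSS of the transcript numbered 201, upstream to the left, by library; grey marks the gene and dotted lines its TSS clusters. The peaks at Zfpm1 reach 43.4 at the TSS and run through the gene, Gata3 has a single strong site 1.1 kb upstream, and the spans of Gata4 and Gata5 are nearly or wholly without peaks.

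Gata4, a regulator of heart and liver development, had no promoter peak in either library. None of its 4 TSS clusters on chromosome 14 (chr14:63198922-63271692, minus strand) had a base listed below an FDR of 0.05. The nearest peak to the TSS of Gata4-201 lay 10730 bp away in replicate 1 and 10750 bp away in replicate 2. This was the only site inside the gene in both libraries, at chr14:63256001-63256180 in the first intron of the longer transcripts, with 1.25 in replicate 1 and 0.389 in replicate 2. The stronger sites of the window were outside the gene. The promoters of Fdft1, which encodes squalene synthase, had peaks of 22.7 and 9.26 and of 4.65 and 2.00, and a site 49.3 kb downstream of the TSS had 6.06 and 3.33. Of the 7 sites in both libraries, 3 were promoters of other genes, and the density of 4.05 per 100 kb was at the 40th percentile.

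Gata5, known from heart valves and gut, likewise had no promoter peak in either library. Its TSS (chr2:180325133-180334699, minus strand) had no base listed below an FDR of 0.05, and the nearest peak was 12522 bp away in both libraries. No site lay inside the gene in either library. The window held 6 sites, 5 of them in both libraries (4.56 per 100 kb, the 43.1st percentile), all outside the gene and outside promoters. The strongest were 58.7 kb downstream of the TSS, with 4.47 and 2.14, and 12.6 kb upstream, with 4.03 and 2.19, and the next had 1.09 and 0.62. Of the 5, 3 lay 12.6 to 18.8 kb upstream of the TSS and 2 lay 57.7 and 58.7 kb downstream.

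Gata6, which acts in endoderm and in the heart and also marks large peritoneal macrophages, had a weak promoter peak. At the TSS of Gata6-201 the signal was 0.578 in replicate 1 and 0.398 in replicate 2, at the 5.61st and 8.59th percentile of genes with a promoter peak. That site also covers the promoter of 1010001N08Rik, which is transcribed away from Gata6, and the peak cannot be assigned to either gene. Replicate 1 had 7 further weak sites, from 0.21 to 0.431, near the start of the gene that replicate 2 did not have. The only other site in both libraries was 77.2 kb downstream, with 0.401 and 0.26, and the density was 1.5 per 100 kb. This equals the density at Gata3, although in replicate 1 alone Gata3 had 17 sites and Gata6 had 9.

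Zfpm2, the FOG cofactor known from heart and gonad, is the longest of the 8 genes, with a span of 450 kb (chr15:40655035-41104592, plus strand). Its promoter had a peak in each library, 0.371 in replicate 1 and 0.218 in replicate 2, at the 2.06th and 1.57th percentile of genes with a promoter peak. The peak of replicate 2 lay 489 bp from the TSS and did not overlap a peak of replicate 1, so no promoter site was found in both. The lowest FDR within 500 bp of that TSS was 5.41e-07 in replicate 1 and 0.0379 in replicate 2. In introns 3 and 5, 3 sites were found in both libraries. They had 2.19 and 0.582, 1.03 and 0.498, and 0.195 and 0.13, and the last was at the 1.02nd and 0.24th percentile of sites outside promoters. The density, 0.546 per 100 kb at the 14.3rd percentile, was the lowest of the 8 windows.

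The members known from blood had more sites in both libraries around them than Gata4, Gata5 and Gata6, but the ranges overlapped. The median was 9.85 per 100 kb for the 4 blood members (1.5 at Gata3 to 16.1 at Zfpm1) and 4.05 for the other 3 (1.5 at Gata6 to 4.56 at Gata5). The median over all protein-coding genes was 5.52. Outside promoters the medians were 7.28 and 2.32, and 2.95 over all genes. Inside the gene the blood members held 24 sites in both libraries and Gata4, Gata5 and Gata6 held 2. A site inside the gene was found in both libraries at 7 of the 8 genes, all but Gata5, where 68.5% of protein-coding genes had one. With only the peaks at or above each library's median signal the medians were 3.39 and 1.74 per 100 kb. The blood median was higher than the other in all 8 alternative settings tried. Replicate 1 alone, leaving out replicate 2, gave a blood median of 18.1 against 5.48, with Gata3 at 12.8, Zfpm1 at 40 and Gata6 at 6.74, and a median over all genes of 8.13. The ranges did not overlap there. Replicate 2 alone gave 11.6 against 4.56 with overlapping ranges, Gata3 at 2.26 and Gata6 at 1.5, and a median over all genes of 6.76. The place of Gata3 thus depended on weak sites of replicate 1.

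**Figure D3:**
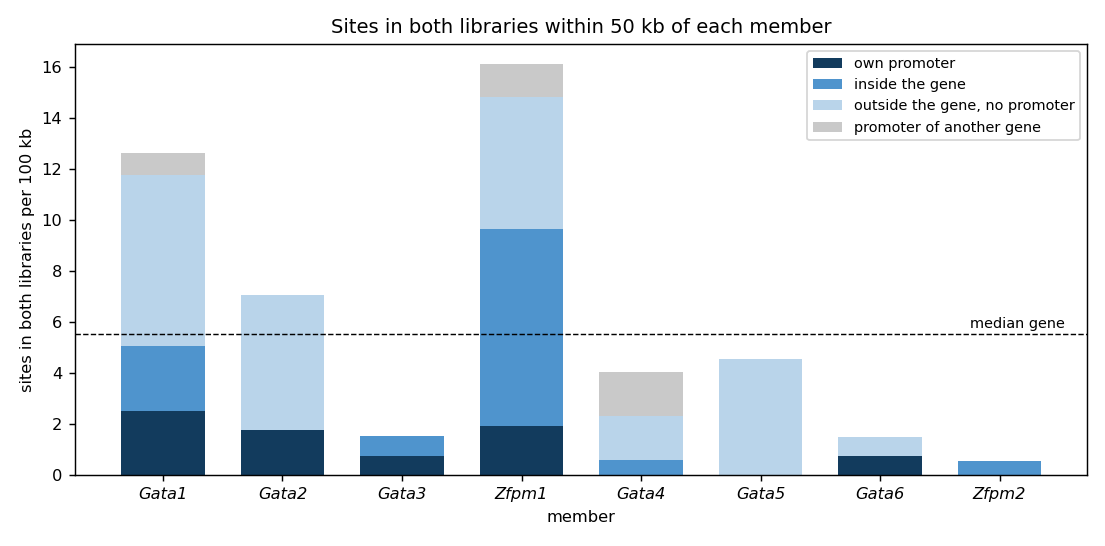
Sites found in both libraries per 100 kb of each gene's window (bars, linear axis from 0), split by where the site lies; the dashed line is the median protein-coding gene, 5.52. Zfpm1 (16.1) and Gata1 (12.6) stand highest and Gata2 (7.07) just above the median, while Gata3, Gata4, Gata5, Gata6 and Zfpm2 are below it.

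GATA hexamers were about as common in the sites of the 8 windows as elsewhere. The central 200 bases held a hexamer at 15 of the 67 sites in both libraries (22.4%), against 21.8% of all such sites in the genome. By member, 7 of these sites were at Zfpm1, 3 at Gata1, 2 at Gata4, 1 each at Gata2, Gata3 and Gata5, and 0 at Gata6 and Zfpm2. The 200 bases reach beyond the ends of a narrower site, and no site at Gata5 held a hexamer within its own bounds. An E-box with 6 to 10 bases between it and a hexamer was present at 3 of the 67 sites, against 1.94% of all sites. Those 3 were the Gata1 sites 3.6 and 0.5 kb upstream and a site 64.5 kb downstream of the Gata4 TSS with 0.908 and 0.532. At the Gata1 site 0.5 kb upstream the E-box, CATCTG at positions 111 to 116 of the printed run, overlapped the first of the 2 hexamers. Of other motifs, CACCC, bound by the red cell factor KLF1, occurred in 6 of the 12 sequences printed, up to 3 times in the Gata1 site 3.6 kb upstream and in the Zfpm1 promoter, and 49.4% of all sites held it. TGTGGT, a core bound by RUNX1, occurred in the Zfpm1 site at 39.7 kb alone among the sequences printed, and 15.7% of all sites held it. CCGGAA, an ETS factor core, occurred in the Gata2 intron 4 site alone among them, and 8.81% of all sites held it. Each was searched on both strands in the central 200 bases.

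Footprints with a GATA hexamer made up a small part of the footprints at these genes. In the 8 windows, 15 of 450 footprints in replicate 1 (3.33%, 95% exact binomial interval 1.88 to 5.44) and 9 of 233 in replicate 2 (3.86%, 1.78 to 7.21) held a hexamer when extended by 5 bp on each side. Over all peaks the shares were 2.07% and 2.28%, which lie inside these intervals. Zfpm1 had 8 of 217 (3.69%, 1.60 to 7.13) and 7 of 105 (6.67%, 2.72 to 13.3). The blood members together had 11 of 356 (3.09%, 1.55 to 5.46) and 8 of 180 (4.44%, 1.94 to 8.57). Gata4 had 4 of 26 (15.4%, 4.36 to 34.9) in replicate 1 and 1 of 23 (4.35%, 0.11 to 21.9) in replicate 2. The footprints at Gata4 lay at the weaker Fdft1 promoter, where 2 shared a hexamer, and at the site 64.5 kb downstream, not in the gene. Gata3, Gata5, Gata6 and Zfpm2 had 0 in each library. With 24 and 5 footprints at Gata3, the upper bounds were 14.2% and 52.2%. The intervals cover counting error only, and footprints of a site are not independent.

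**Figure D4:**
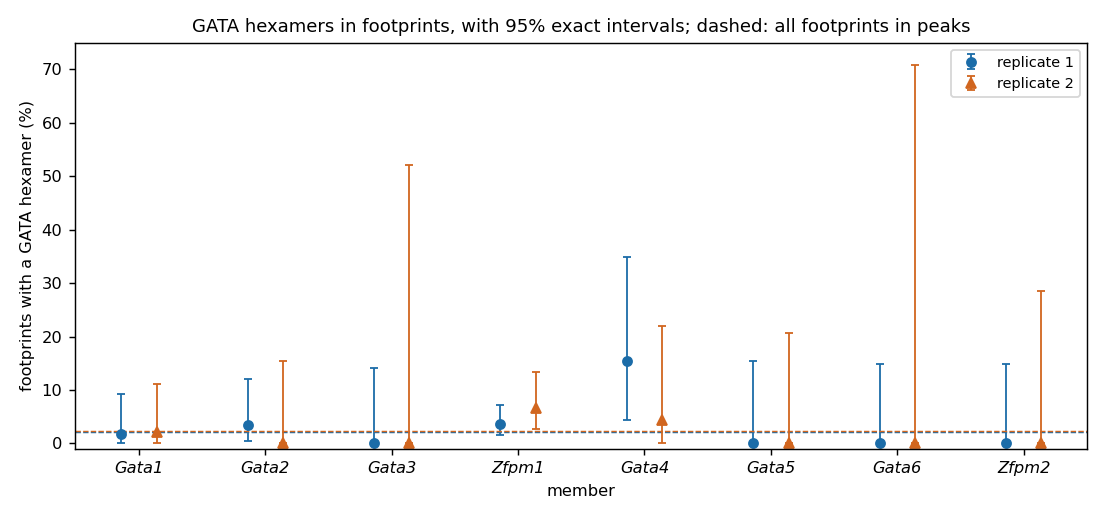
Percent of footprints in peaks of each window that held a GATA hexamer, by library, with 95% exact binomial intervals; the dashed lines are all footprints in peaks, 2.07% and 2.28%. Most intervals include the dashed lines and are wide, since the members had between 3 and 217 footprints, and the values of Zfpm1 in replicate 2 and Gata4 in replicate 1 lie above with their intervals.

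The promoters of all blood partners of GATA factors were accessible, and those of most heart and endoderm partners had no peak in both libraries. All 12 blood partners had a promoter peak in both libraries, with a median signal of 5.97 in replicate 1 and 2.75 in replicate 2 and 15.9 sites per 100 kb. Among them Tal1, the E-box factor of the GATA1 complex, had 8.12 and 3.08, its bridging partner Lmo2 had 4.54 and 2.13, Ldb1, which joins enhancers to promoters, had 13.4 and 4.71, and Klf1 had 2.10 and 2.76. All 15 corepressor genes of NuRD and CtBP had one, with medians of 19.1 and 6.66. Hdac1 had 21.8 and 8.13, and Ctbp2 had 2.53 and 1.25. Of the 12 partners of GATA4, GATA5 and GATA6 in heart and endoderm, 3 had a promoter peak in both libraries and 6 in replicate 1. The 3 were Mef2c (2.01 and 0.917), which also acts in B cells, the widely used factor Srf (13.7 and 5.64) and Sox17 (0.431 and 0.226). Tbx5, Tbx20, Hand1, Hand2, Hnf4a and Foxa2 had none in either. Of 9 other genes with a GATA-type zinc finger, 8 had a promoter peak in both libraries, all but Zglp1, a factor of germ cells, which had 0.398 in replicate 1 alone. These counts are to be read beside the 60.7% of all protein-coding genes. The lists overlap: Gatad2a, Gatad2b, Mta1, Mta2 and Mta3 count both as corepressor genes and as genes with a GATA-type zinc finger. Klf1 is also counted among the red cell markers below.

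Against 60.7% of all protein-coding genes, a promoter peak in both libraries was found at 5 of 5 red cell markers, with a median of 6.03 and 3.04, and at 5 of 5 B cell markers, with 4.08 and 1.57. T cell markers had one at 3 of 5, and Cd3e and Bcl11b had one in replicate 1 alone, with 0.439 and 1.08. Mast cell and progenitor markers had one at 1 of 4, Kit, with 2.47 and 1.13. Of the spleen mesenchyme markers 2 of 4 had one, of the heart markers 1 of 4 (Actn2) and of the liver markers 0 of 4. How far each cell type contributed to the signals at the 8 genes was not tested.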

How the data were processed

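DNase-seq was deposited for 2 spleen libraries, grouped by the labels as biological replicates 1 and 2. Per the deposited README, files were made from the filtered mm10 alignment of 1 library each, without pooling. The sources used here do not name the aligner or the callers. The signal deposited by the authors is a depth-scaled density whose constant is not stated, and read totals were not analysed here, so depth is unknown. The FDR values, a kind of q-value, were deposited by the authors for stretches below 0.05. Footprints were deposited by the authors as positions with the same constant in every row, which was not used.

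The longer peak list was used. Peaks overlapping by at least 1 bp were merged, and footprints were assigned to peaks by overlap, in Python 3.11.15 with pandas 2.3.3 and pysam 0.24.0. Start sites closer than 100 bp were joined. The motif search covered the GRCm38 reference, which is C57BL/6, and CAST/EiJ alleles were not examined. Promoter sequences of 5 members were in the RefSeq table (GRCm38), and GATA hexamers were counted in them. The counting was tested on simulated data. Percentiles of promoter signal rank a gene, within a library, among protein-coding genes with a promoter peak in both libraries. Those of site signal rank a site, within a library, among sites in both libraries outside promoters. Density percentiles rank a gene among all protein-coding genes. CpG-rich means an observed to expected ratio of at least 0.6. The 8 genes, the gene lists and the sites named were chosen with earlier results of these data known. Named were every TSS cluster, the promoter peaks and up to 3 of the strongest sites outside promoters of each member. The alternatives were the shorter list, stronger peaks, other promoter windows, other flanks, reciprocal overlap, other footprint extensions, AGATAA alone and each library alone.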

Additional observations from a re-analysis of the deposited data

How the results depend on the processing

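A stricter choice of peaks lowered the promoter count of the blood members and the median densities, and a signal threshold lowered the densities most. With the shorter deposited list, 2 of the 4 blood members kept a promoter peak in both libraries (Gata1 and Zfpm1). Gata6 kept its call there and Zfpm2 lost it. The median densities were 6.35 sites per 100 kb for the blood members and 3.47 for Gata4, Gata5 and Gata6, against 9.85 and 4.05 with the longer list. With peaks at or above the median signal 2 blood members kept a promoter peak, with 0 of Gata4, Gata5 and Gata6, and Zfpm2 lost its call again. At that threshold the median density was 3.39 sites per 100 kb for the blood members and 1.74 for Gata4, Gata5 and Gata6. For the latter it was 5.13 with flanks of 100 kb and 2.32 outside promoters. The pooled share of footprints with a GATA hexamer at blood members, 3.54%, was 2.43% with no extension and 1.68% with AGATAA alone. Shares over all footprints were not compared under these settings. The values therefore cannot be set against the 2.07% and 2.28% given above for all peaks. In each library alone, leaving out the other, the promoter counts were 4 to 4 and 1 to 1, the densities 11.6 to 18.1 and 4.56 to 5.48 per 100 kb, and the footprint share 3.09 to 4.44%. A value was taken as moved when a promoter call changed or a site count differed by more than 1.5 times. For median densities and the footprint share the limit was the SD of the values in each library alone. Under that limit the shorter list did not move the densities, although the blood median fell from 9.85 to 6.35. Of 56 promoter values of single members under the alternatives 8 moved, and of 64 site counts 27. Site counts were not scaled to the window, so other flanks changed them through window size. Taking a library alone could hardly lower them, and leaving out promoters could not raise them. Weak sites limit the values of these 8 windows. The sites found there in replicate 1 alone had a median signal of 0.369. The median over all peaks of replicate 1 was 0.578. No paired analysis was possible because the series has 1 group.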

Other observations

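A region far upstream of Gata2 is known to regulate the gene in blood progenitors, and it lies outside the windows used above. A look between 75 and 80 kb upstream of the distal TSS, chosen after the windows were seen, found 2 sites in both libraries. That at 77.2 kb (chr6:88116561-88116900) had 1.72 in replicate 1 and 1.06 in replicate 2 as its signal, at the 71.2nd and 73.3rd percentile of sites outside promoters. No GATA hexamer lay anywhere in this site. That at 76.7 kb (chr6:88116961-88117380) had 0.604 and 0.54 and held 2 hexamers, and no footprint covered a hexamer in either library. Both signals at 77.2 kb exceeded those of either Gata2 promoter in the same library.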
